A study of Mus musculus with 6 samples.

Results

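The genes described here carry the symbols of proteins of the cytosolic ribosome. They were chosen by symbol, an Rpl or Rps name with a number and at most a closing a, x or l, or Rplp0, Rplp1 or Rplp2, on array probe sets whose annotation gives 1 gene symbol. Where a gene had several such probe sets, the one with the highest mean over the 6 arrays was read. This gave 63 genes from 102 probe sets, out of 22180 genes with such a probe set. By symbol, 40 of the 63 belong to the large and 23 to the small subunit. RefSeq lists 61 of the 63 as protein coding, and Rpl6l and Rps4l as pseudogenes. A further 19 mouse genes fit the symbol pattern, 11 of the large and 8 of the small subunit, but had no probe set with 1 symbol and were not analysed here. Rpl10 and Rpl13a are among them.

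The 6 arrays came from brain lesions of mice, 1 macrodissected lesion each, with 3 transgenic and 3 wild type lesions. The transgenic mice carry a construct through which GFAP-expressing astrocytes that are not dividing can be removed selectively; the promoter that drives it is not given in the sources used here. Both genotypes, at an age of 5 to 6 weeks, received LPC, a lipid that strips myelin locally. Both were injected 48 hours later with CID, the compound that sets off the ablation in transgenic mice, and the lesions were taken 7 days after they were made. Whether each lesion was taken from a different mouse is not stated. The p-values therefore describe the spread of these 6 samples alone, which may be technical. Levels are log2 RMA intensities, and differences are transgenic minus wild type on the log2 scale.

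The cytosolic ribosome consists of a large subunit, which joins amino acids and feeds the growing chain into an exit tunnel, and a small subunit, which holds the messenger RNA and reads its codons. One copy of nearly every ribosomal protein is built into each ribosome, so the genes are known for expression in balanced amounts in almost all cells. Many of their messenger RNAs start with a run of pyrimidines, the 5′ terminal oligopyrimidine tract, through which the kinase mTOR and the protein Larp1 control their translation.

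Runs of pyrimidines could be seen near the annotated starts of part of these genes. The RefSeq promoter table (GRCm38.p6) held 57 start windows for 48 of the 63 genes. Within the 15 bases before and the 15 after the start, an unbroken run of at least 8 letters C or T occurred in 23 windows (40.35%). Of all 32851 windows in RefSeq's promoter file, 3943 had such a run (12%), and of the 75 windows of mitochondrial ribosomal protein genes 9 had one. The following windows are shown because they belong to genes whose values are described below, with a long run in some and a short one in others. Each is given 5′ to 3′ on the gene's strand, and capitals mark the longest run of C or T.
Rpl7a (chr2:26910792-26910821, plus strand): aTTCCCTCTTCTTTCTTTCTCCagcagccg
Rpl14 (chr9:120571502-120571531, plus strand): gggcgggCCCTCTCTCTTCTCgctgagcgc
Rpl15 (chr14:18270972-18271001, minus strand): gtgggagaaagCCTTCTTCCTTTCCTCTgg
Rps6 (chr4:86857353-86857382, minus strand): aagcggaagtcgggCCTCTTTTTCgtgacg
Rps9 (chr7:3704026-3704055, plus strand): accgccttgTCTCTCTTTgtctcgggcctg
Rps27 (chr3:90213634-90213663, minus strand): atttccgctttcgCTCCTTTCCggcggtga
Rpl26 (chr11:68901551-68901580, plus strand): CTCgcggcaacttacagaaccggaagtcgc
Rpl37a (chr1:72711245-72711274, plus strand): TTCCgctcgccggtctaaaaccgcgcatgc
The run is 21 letters long in Rpl7a, 17 in Rpl15, 14 in Rpl14 and 10 in Rps6, but 4 in Rpl37a and 3 in Rpl26. An annotated start can lie some bases from the true one, so a short run says only that these letters are not in this window. A long run need not be the tract, since the window also covers bases before the start and the run may begin away from it. Over the full 300 bases, from 250 before to 50 after the start, the ETS-type motif CCGGAAG was found on either strand in 36.84% of these genes' windows, 34.67% of mitochondrial ribosomal protein windows and 8.86% of all windows. The YY1-type motif AAGATGG, which can also arise around a start codon, was in 10.53%, 17.33% and 6.34% of them.

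No cytosolic ribosomal protein gene passed the test between transgenic and wild type lesions. In limma, 0 of the 63 genes had an adjusted p under 0.05, and the share over all 41345 probe sets was 0%. The smallest adjusted p among the 63 was 0.487. At an unadjusted p under 0.05, 2 of the 63 (3.17%) were found, both higher in transgenic lesions, against 8.87% of all probe sets in either direction and 4.82% in the higher direction. Every transgenic array lay above or below every wild type array for 8 of the 63 genes (12.7%), against 16.1% of all probe sets. Of these, 6 were higher and 2 lower, against 8.54% and 7.6% of all probe sets. Both overall shares lay below those of the whole array.

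Their means leaned to the higher side by a small amount. In transgenic lesions 29 of the 40 large subunit genes and 18 of the 23 small subunit genes had the higher mean, together 74.6%, against 48.9% of all probe sets. The other 16 genes had the lower mean, as did 51.1% of all probe sets. The median difference was 0.11 for the large and 0.12 for the small subunit, a 1.08-fold difference in each, against -0.0066 for all probe sets. Differences ran from -0.32 (Rpl14) to 0.60 (Rpl26) in the large and from -0.23 (Rps6) to 0.43 (Rps27) in the small subunit. Only Rpl26 differed by at least 1.5-fold, 1 of 63, while 7.62% of all probe sets did. The median half-width of the 95% interval of a single gene was 0.39, a 1.31-fold difference, so smaller differences of single genes were mostly not resolvable with these arrays.

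**Figure D1:**
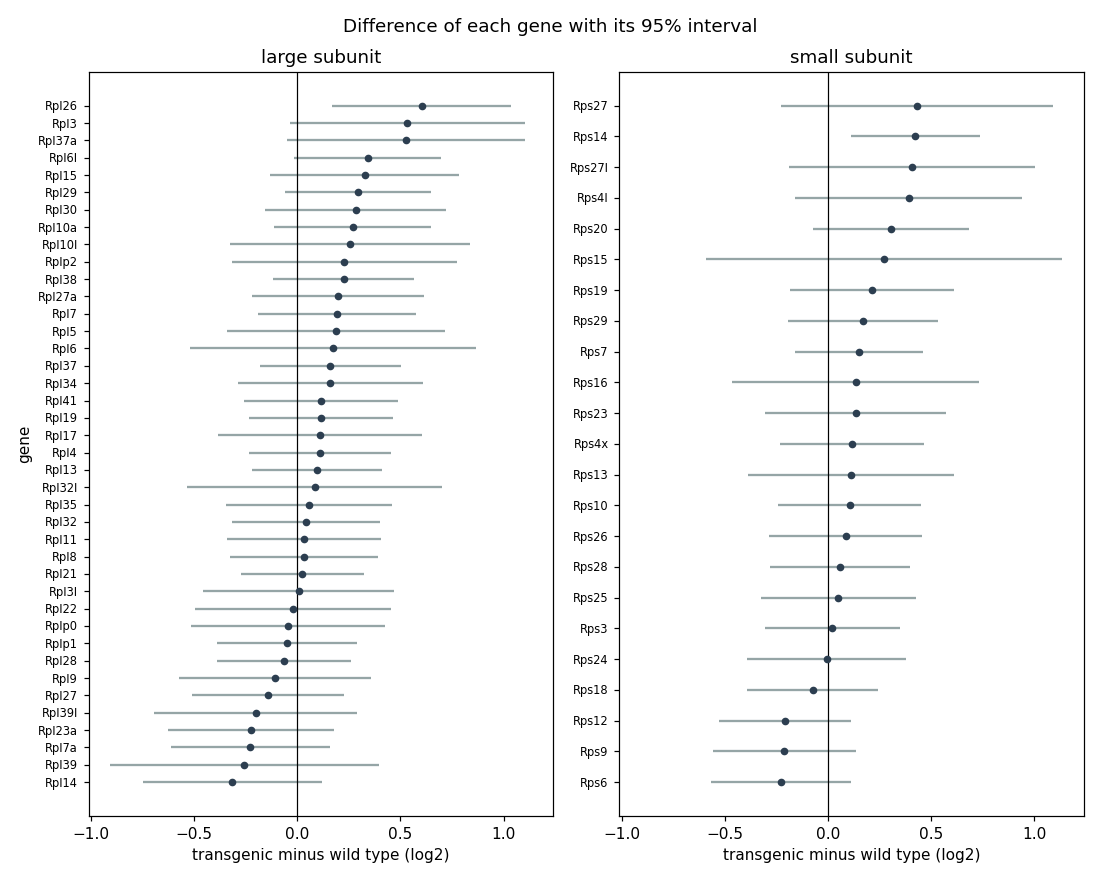
Transgenic minus wild type difference of each gene (x axis, log2) for the large subunit (left, 40 genes) and the small subunit (right, 23 genes), sorted by size. Points are the fitted differences and bars their 95% intervals; the interval lies wholly above 0 for Rpl26 and Rps14 and includes 0 for the other 61 genes.

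The lean was not shared by all transgenic arrays. For each array the median deviation of the 63 genes from their wild type mean was taken: it was 0.19, 0.12 and -0.01 in transgenic replicates 1, 2 and 3, and -0.03, -0.03 and 0.06 in wild type replicates 1, 2 and 3. Transgenic replicate 3 thus lay within the wild type range. For the large subunit alone it was 0.24, 0.08 and 0.03 in transgenic replicates 1, 2 and 3, and for the small subunit 0.15, 0.25 and -0.03. Wild type arrays ran from -0.04 to 0.06 in each subunit. Transgenic replicate 1 held the highest value for 30 of the genes, replicate 2 for 21 and replicate 3 for 1, against 6, 3 and 2 in wild type replicates 1, 2 and 3. The lowest value was held by transgenic replicates 1, 2 and 3 for 9, 3 and 13 genes and by wild type replicates 1, 2 and 3 for 19, 17 and 2. Without transgenic replicate 1 the median difference was 0.04 in the large and 0.06 in the small subunit; without transgenic replicate 2 it was 0.12 and 0.07. Without transgenic replicate 3 the small subunit gave 0.18, and without wild type replicate 1 the large subunit gave 0.07. With array weights in limma the small subunit median was -0.0081, and with the level of Xist, a female-specific RNA described further on, as a covariate it was 0.28.

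**Figure D2:**
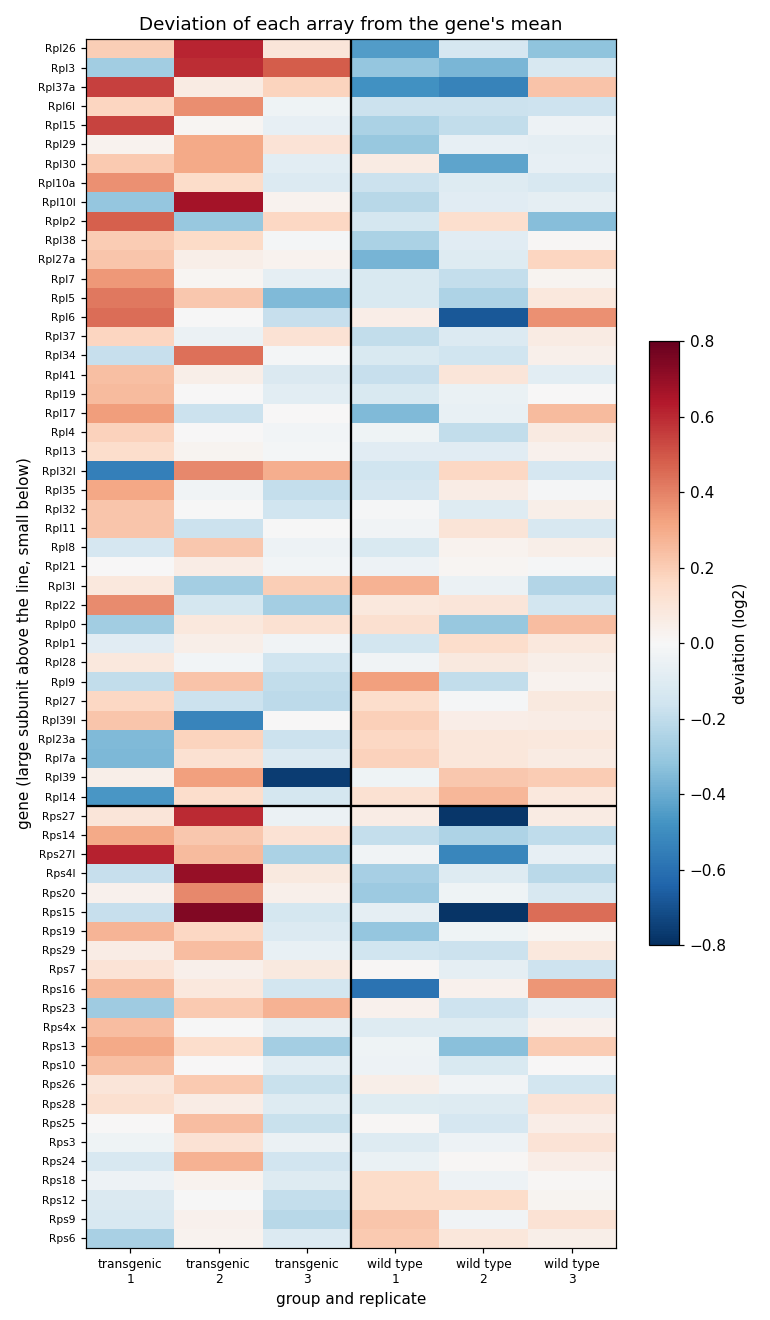
Deviation of each array (columns, transgenic replicates on the left, wild type on the right) from the gene's mean over the 6 arrays (colour, log2, red higher and blue lower), for large subunit genes above the line and small subunit genes below it. Transgenic replicates 1 and 2 hold the highest value of 30 and 21 genes, and transgenic replicate 3 that of 1.

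In the large subunit the gene with the smallest p was Rpl26, a protein at the rim of the exit tunnel that in human cells also binds the messenger RNA of p53. It stood at 7.72, 8.14 and 7.62 in transgenic replicates 1, 2 and 3, against 7.08, 7.40 and 7.20 in wild type replicates 1, 2 and 3. All transgenic arrays were above all wild type arrays, by 0.60 (SE 0.18), a 1.52-fold difference at an adjusted p of 0.487 in limma. Once probe sets with several symbols were read too, the brightest one of Rpl26 gave a difference of 0.088. Rpl29, a small basic protein of the large subunit, also had groups that did not overlap. It was measured at 10.76, 11.03 and 10.84 in transgenic and 10.43, 10.67 and 10.66 in wild type lesions, a difference of 0.29 (SE 0.15), but its second probe set gave -0.0045. Rpl6l, a copy of Rpl6 that RefSeq lists as a pseudogene, completed the large subunit genes without overlap. Its arrays read 9.13, 9.33 and 8.93 in transgenic lesions and 8.79, 8.79 and 8.79 in wild type lesions (difference 0.34, SE 0.15). Signal of such a copy cannot be told from that of its parent gene where the probes match both. Genes higher without overlap made up 7.5% of the large subunit, against 8.54% of all probe sets.

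Rpl3 and Rpl37a had the largest differences after Rpl26, but their groups overlapped. Rpl3, which reaches towards the site where peptide bonds form, stood at 9.60, 10.46 and 10.36 in transgenic and 9.56, 9.51 and 9.74 in wild type lesions. The first transgenic array was level with wild type and the other 2 were higher (difference 0.53, SE 0.24, adjusted p 0.589 in limma). Of its 3 probe sets only this one was higher, and the lowest of the 3 gave -0.17. Rpl37a, a zinc-binding protein, was measured at 8.11, 7.63 and 7.74 in transgenic and 7.08, 7.03 and 7.80 in wild type lesions (difference 0.53, SE 0.25); wild type replicate 3 lay among the transgenic arrays. Its brightest probe set with several symbols gave 0.16. For Rpl15, a core protein of the large subunit, the difference was 0.33 (SE 0.20), for Rpl10a, a protein of the stalk through which tRNAs leave, 0.27 (SE 0.16), and for Rpl38, known in mice for a role in translating Hox messenger RNAs, 0.22 (SE 0.15).

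On the lower side of the large subunit, Rpl14 had the smallest p. It stood at 10.15, 10.75 and 10.47 in transgenic and 10.74, 10.88 and 10.70 in wild type lesions, a difference of -0.32 (SE 0.19, adjusted p 0.675 in limma). Only transgenic replicates 1 and 3 were below wild type. Rpl7a, which binds ribosomal RNA, was at 10.98, 11.46 and 11.23 in transgenic and 11.52, 11.42 and 11.40 in wild type lesions (difference -0.23, SE 0.16). Rpl23a, the protein at the tunnel exit to which the signal recognition particle docks, was at 11.67, 12.20 and 11.85 in transgenic and 12.19, 12.11 and 12.11 in wild type lesions (difference -0.23, SE 0.17). All 3 genes were lowest in transgenic replicate 1, the array on which most other large subunit genes were high, and in transgenic replicate 2 they were level with wild type.

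**Figure D3:**
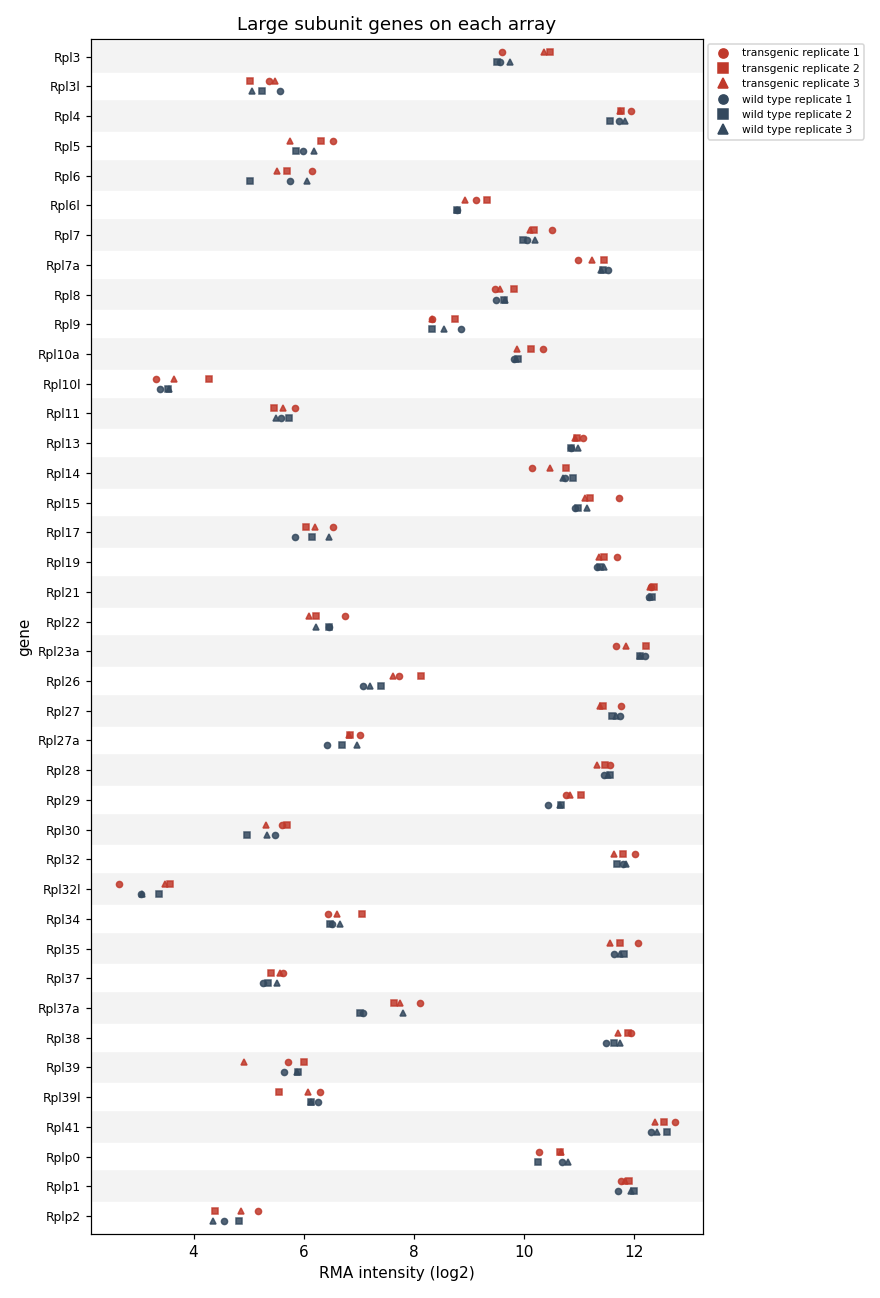
RMA intensity (x axis, log2) of the 40 large subunit genes on each array, with the transgenic arrays (red) drawn above the wild type arrays (dark) and the symbol shape giving the replicate. The 2 groups lie apart for Rpl26, Rpl29 and Rpl6l (7.5%, against 16.1% of all probe sets) and overlap for the other 37 genes. Positions of different genes are not comparable, since each has its own probes.

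Among small subunit genes Rps14, a protein of the platform whose loss of 1 copy is known from human myelodysplasia, had the smallest p. It stood at 6.43, 6.34 and 6.24 in transgenic and 5.93, 5.88 and 5.92 in wild type lesions. The arrays within each group differed little and the groups did not overlap (difference 0.42, SE 0.13, 1.34-fold, adjusted p 0.488 in limma). Rps20, of the head of the subunit, was at 7.15, 7.499 and 7.15 in transgenic and 6.82, 7.08 and 6.98 in wild type lesions (difference 0.31, SE 0.16). Rps7, a protein that human cells need for maturing the small subunit's RNA, was at 7.05, 6.98 and 7.02 in transgenic and 6.95, 6.86 and 6.77 in wild type lesions (difference 0.15, SE 0.13). These were the 3 small subunit genes with every transgenic array above wild type, 13.0% of the 23, against 8.54% of all probe sets.

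In the small subunit 2 of the 23 genes had every transgenic array below every wild type array, against 7.6% of all probe sets. Rps6, the protein that S6 kinases phosphorylate when mTOR is active, was at 11.70, 11.99 and 11.85 in transgenic and 12.17, 12.05 and 12.01 in wild type lesions. The difference was -0.23 (SE 0.14), with an interval of -0.57 to 0.11 and an adjusted p of 0.704 in limma. Rps12, of the beak of the subunit, was at 12.48, 12.60 and 12.41 in transgenic and 12.75, 12.75 and 12.62 in wild type lesions (difference -0.21, SE 0.14). All 8 probe sets of Rps12 were lower, but they held only 3 distinct rows of values. Rps9, whose bacterial relative acts in decoding accuracy, was at 10.14, 10.30 and 10.05 in transgenic and 10.50, 10.24 and 10.39 in wild type lesions (difference -0.21, SE 0.15), with overlap in 1 wild type array.

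**Figure D4:**
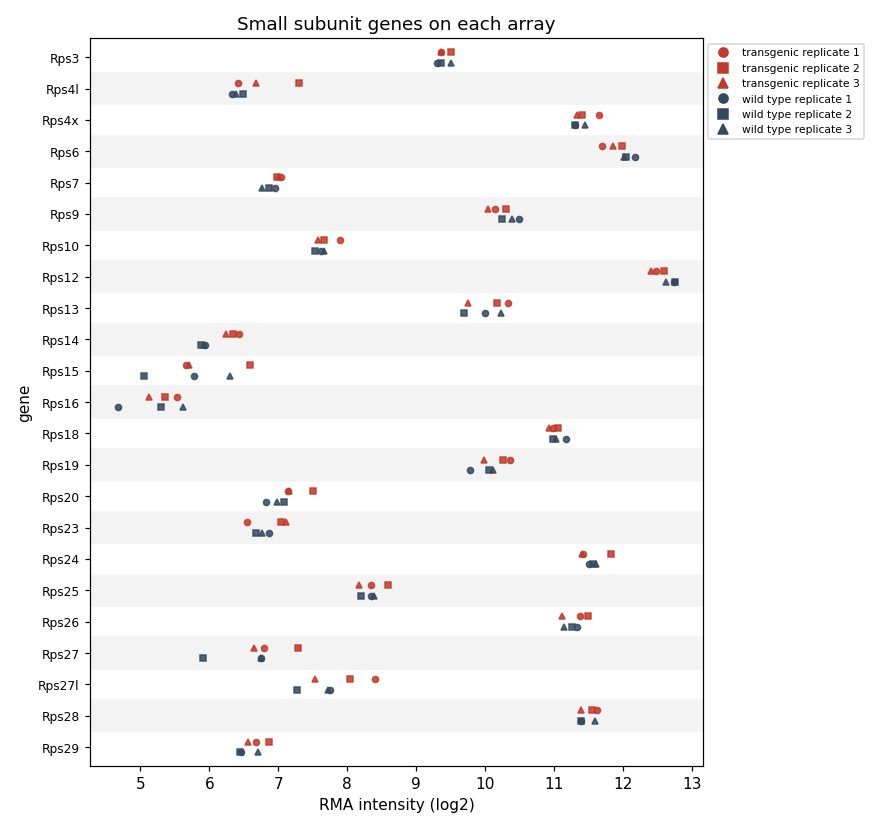
RMA intensity (x axis, log2) of the 23 small subunit genes on each array, with the transgenic arrays (red) drawn above the wild type arrays (dark) and the symbol shape giving the replicate. Transgenic arrays lie above wild type for Rps7, Rps14 and Rps20 and below it for Rps6 and Rps12 (together 21.7%, against 16.1% of all probe sets). The other 18 genes overlap.

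The largest SDs over the 6 arrays in the small subunit were those of Rps15 and Rps27. Rps15, a protein near the decoding site, ranged over both groups, at 5.66, 6.59 and 5.70 in transgenic and 5.78, 5.06 and 6.29 in wild type lesions (difference 0.27, SE 0.37). Rps27, a zinc finger protein, was at 6.79, 7.28 and 6.65 in transgenic and 6.75, 5.91 and 6.75 in wild type lesions (difference 0.43, SE 0.28), and wild type replicate 2 alone was low. With probe sets of several symbols read too, Rps27 was at 0.18. Its paralog Rps27l, a target of p53, was at 8.40, 8.04 and 7.53 in transgenic and 7.76, 7.27 and 7.72 in wild type lesions (difference 0.41, SE 0.25).

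Across the 63 genes the brightness of the probe sets went with the size of the lean. A mean above 9 was found for 32 genes, against 4.76% of all probe sets, and 7 genes lay below 5.50, the median of all probe sets. Split at 9, a value chosen after the data were seen, the 32 bright genes had a median difference of 0.05, with 20 higher and 12 lower. All probe sets above 9 also had a median of 0.05, and 57.8% of them were higher, against 62.5% of the bright genes. The 31 dim genes had a median of 0.17, with 27 higher (87.1%) and 4 lower. All probe sets at or below 9 had a median of -0.0093, with 48.4% higher. Among the dim genes were Rpl26 and Rps14, the 2 members with an unadjusted p under 0.05 in limma. In the small subunit all 12 dim genes were higher, at a median of 0.22, and 6 of the 11 bright ones, at a median of 0.02. What makes these probe sets dim was not tested; the values do not show which transcripts their probes match.

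Ribosomal proteins that are commonly used as reference genes in expression studies had small fitted differences, but their 95% intervals do not exclude larger ones. Rplp0, the base of the stalk that recruits elongation factors, was at 10.28, 10.64 and 10.68 in transgenic and 10.68, 10.25 and 10.80 in wild type lesions (difference -0.05, 95% interval -0.52 to 0.42). Rpl32 was at 12.02, 11.79 and 11.64 in transgenic and 11.79, 11.69 and 11.84 in wild type lesions (difference 0.04, interval -0.32 to 0.40). Rps18 was at 10.99, 11.05 and 10.92 in transgenic and 11.17, 10.98 and 11.03 in wild type lesions (difference -0.07, interval -0.39 to 0.24). The groups overlapped in all 3 genes. Of their probe sets, those of Rplp0 and of Rps18 differed in sign among themselves.

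Genes tied to nucleolar stress or to disease gave no call. Rpl5 and Rpl11, which with 5S ribosomal RNA bind and inhibit Mdm2, were both dim. Rpl5 was at 6.53, 6.32 and 5.75 in transgenic and 5.99, 5.86 and 6.19 in wild type lesions (difference 0.19, SE 0.22), and 0.44 with probe sets of several symbols read too. Rpl11 was at 5.85, 5.45 and 5.62 in transgenic and 5.59, 5.73 and 5.50 in wild type lesions (difference 0.03, SE 0.16). In both, transgenic replicate 1 was highest and the groups overlapped. Rps19, the gene most often mutated in Diamond-Blackfan anaemia in people, was at 10.36, 10.25 and 9.98 in transgenic and 9.78, 10.06 and 10.11 in wild type lesions (difference 0.21, SE 0.17). Rpl22, which also binds viral and cellular RNAs outside the ribosome, was at 6.75, 6.22 and 6.09 in transgenic and 6.45, 6.46 and 6.22 in wild type lesions (difference -0.02, SE 0.20).

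Tissue-restricted paralogs showed no call either. Rpl3l, known from heart and skeletal muscle, was at 5.37, 5.02 and 5.49 in transgenic and 5.57, 5.24 and 5.06 in wild type lesions. Rpl10l, known from male germ cells, was at 3.31, 4.29 and 3.65 in transgenic and 3.40, 3.53 and 3.55 in wild type lesions. The levels of Rpl10l lay below the array medians of 5.34 to 5.59. Rpl39l, another germ cell paralog, was at 6.30, 5.55 and 6.08 in transgenic and 6.26, 6.13 and 6.14 in wild type lesions (difference -0.20, SE 0.21). Rps4l, which RefSeq lists as a transcribed pseudogene, differed by 0.39 (SE 0.23). In Rps4l transgenic replicate 2 stood highest, at 7.30, against 6.41 and 6.68 in transgenic replicates 1 and 3 and 6.33 to 6.49 in wild type lesions.

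The groups differed in sex-linked transcripts, and 2 of the 63 genes are on the X chromosome. Xist, the RNA that silences the second X chromosome of females, was at 4.67, 9.14 and 4.42 in transgenic replicates 1, 2 and 3 and at 9.30 to 9.49 in wild type lesions. Eif2s3y, Kdm5d and Uty, on the Y chromosome, were high in transgenic replicates 1 and 3. The X-linked Rps4x was at 11.66, 11.41 and 11.34 in transgenic and 11.31, 11.31 and 11.44 in wild type lesions (difference 0.12, SE 0.15). Rpl39, a short protein inside the exit tunnel, was at 5.72, 6.00 and 4.92 in transgenic and 5.64, 5.89 and 5.88 in wild type lesions (difference -0.26, SE 0.28). In neither gene did transgenic replicates 1 and 3 stand together apart from the other arrays. The part of sex in the differences of the other genes was not tested within the groups. Wild type lesions had no array with low Xist, and among transgenic lesions replicate 2 alone had high Xist.

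Cell type markers also differed in level between these arrays, though 0 probe sets were called in limma. The summed linear intensity of 7 of 8 listed myelin genes was 3959 to 6893 in transgenic and 9116 to 11921 in wild type lesions. That of 8 of 8 astrocyte genes was 2026 to 3029 in transgenic and 3085 to 3770 in wild type lesions, and that of 5 of 6 striatal neuron genes 398.4 to 550.0 in transgenic and 391.8 to 2784 in wild type lesions. For 8 of 8 phagocyte genes it was 4427 to 12353 in transgenic and 4835 to 14121 in wild type lesions. For 6 of 7 microglia genes it was 1436 to 1573 in transgenic and 3942, 1533 and 1511 in wild type replicates 1, 2 and 3. By mean, all 7 myelin, 5 striatal neuron and 6 microglia genes were lower in transgenic lesions. Of the 8 astrocyte genes 6 were lower and 2 higher, and the 8 phagocyte genes also had 6 lower and 2 higher. The other lists went in different directions. For 4 of 5 cortical neuron genes the sum was 1741 to 2482 in transgenic and 1769 to 2030 in wild type lesions, and all 4 had the higher transgenic mean (median difference 0.28). For 6 of 6 fibroblast genes it was 685.8 to 732.0 in transgenic and 399.7 to 943.1 in wild type lesions. Of these 6 genes, 3 had the higher and 3 the lower transgenic mean. Dcn, a matrix proteoglycan, was higher on every transgenic array (difference 1.41, SE 0.19, adjusted p 0.213 in limma), as was its relative Lum (difference 0.73, SE 0.18). For 5 of 5 endothelial genes the sum was 232.9 to 348.2 in transgenic and 282.0 to 303.0 in wild type lesions. For 4 of 5 proliferation genes it was 225.0, 134.2 and 137.85 in transgenic replicates 1, 2 and 3 and 173.2 to 194.3 in wild type lesions. Of these 4 genes, 3 had the lower transgenic mean (median difference -0.22). No marker read 0 on this scale. The part of cell composition in the ribosomal protein values was not tested; in bulk tissue fewer cells of a type and less RNA per cell cannot be told apart. The SD was larger in the transgenic group for 44 of the 63 genes (69.8%), close to the 71.6% of all probe sets.

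The proteins of the mitochondrial ribosome, which translates the few messages of the mitochondrial genome, also leaned to the higher side. Of 71 such genes, 68 were higher by mean in the transgenic group; their median difference was 0.27, a 1.21-fold difference, and 0 passed the adjusted threshold in limma. At an unadjusted p under 0.05, 16 of the 71 (22.5%) were higher and 0 lower, against 4.82% and 4.05% of all probe sets. Transgenic and wild type arrays were apart in 27 of the 71, all higher, against 8.54% of all probe sets. Mrpl36, a protein of its large subunit, was at 7.64, 7.59 and 7.11 in transgenic and 6.67, 6.94 and 6.87 in wild type lesions (difference 0.62, SE 0.19, adjusted p 0.480 in limma). Mrpl20 differed by 0.74 (SE 0.23) and Mrps22 by 0.49 (SE 0.16). The median of the 71 was 0.12 with array weights and 0.52 with Xist as a covariate. The array pattern again varied, since transgenic replicate 2 held the highest value for 49 of the 71 genes and wild type replicate 1 the lowest for 53. The difference between the 2 ribosomes' genes was not tested.

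**Figure D5:**
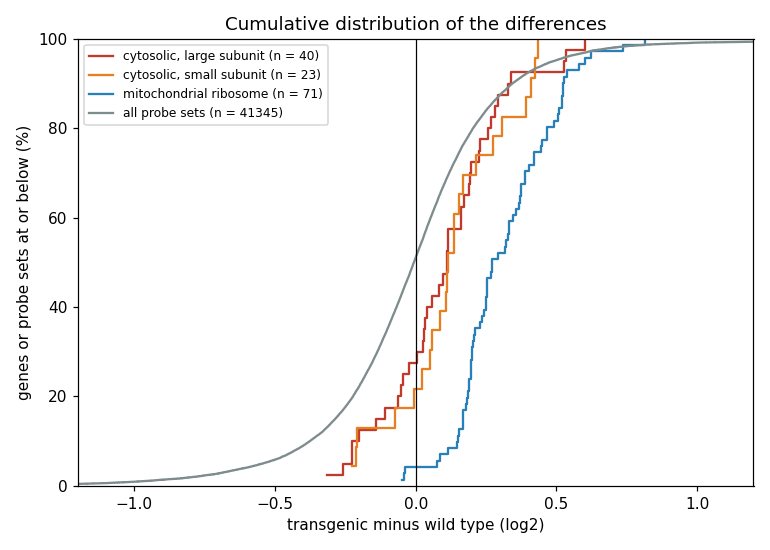
Share of genes or probe sets (y axis, %) with a transgenic minus wild type difference at or below the value on the x axis (log2), for large and small subunit genes of the cytosolic ribosome, mitochondrial ribosomal protein genes and all 41345 probe sets. The cytosolic curves cross 50% near 0.11 and 0.12, the mitochondrial curve near 0.27 and the curve of all probe sets near 0.

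Other genes of protein synthesis were read in 4 further lists and 1 list of ribosomal proteins outside the symbol pattern, without a test between lists. Of 10 listed genes outside the symbol pattern, 5 were measured, among them the small subunit genes Rpsa (difference -0.02), Fau (0.06) and Rps3a1 (-0.02), and their median was -0.02. The list of further messages that carry the pyrimidine tract had 17 of 18 genes measured, 11 higher and 6 lower, with a median of 0.08. An unadjusted p under 0.05 was reached by 0 of the 17, against 8.87% of all probe sets. Groups did not overlap in 5 of the 17 (29.4%), against 16.1% of all probe sets. Eif3k, a subunit of initiation factor 3, differed by 0.34 (SE 0.17), the elongation factor Eef1a1 by -0.24 (SE 0.13) and Eef2, which moves the ribosome along the message, by -0.42 (SE 0.24). Among 20 of 23 other factors of initiation, elongation and termination, 11 were higher and 9 lower, with a median of 0.05. Eif4ebp1, an inhibitor of cap-dependent translation that mTOR switches off, differed by 0.34 (SE 0.14), Eif3a by -0.40 (SE 0.22) and Eif4g2 by -0.25 (SE 0.15).

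Factors that build ribosomes went both ways. Of 27 of 30 listed genes that were measured, 16 were higher and 11 lower in transgenic lesions, with a median of 0.03. At an unadjusted p under 0.05, 3 were higher and 2 lower, 5 of 27 (18.5%), against 8.87% of all probe sets in either direction, and 0 passed after adjustment in limma. Nop10, a core protein of the particles that make pseudouridine in ribosomal RNA, differed by 0.46 (SE 0.16), Rpf2, which loads the 5S RNA particle, by 0.45 (SE 0.16) and Nmd3, the export adaptor of the large subunit, by 0.51 (SE 0.20). The remaining 2 were Rrs1, the partner of Rpf2 (-0.36, SE 0.14), and Dkc1, the pseudouridine synthase that Nop10 binds (-0.38, SE 0.16). The partners named here differed in sign, but these 5 genes were picked by their p-values, so this says nothing about the particles as a whole. In the list of mTOR, Myc and p53 pathway genes 14 of 17 were measured, 7 higher and 7 lower, with a median of 0.0135. Its 3 smallest p-values belonged to Rheb, the activator of mTOR (0.33, SE 0.16), Max (-0.29, SE 0.16) and Mdm2 (-0.17, SE 0.24).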

How the data were processed

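Per the submitters' processing notes, the authors made the deposited intensities by RMA in Affymetrix Expression Console; no version or build is named in the sources used here. The deposited intensities were linear (lowest value 3.73) and were turned to log2 without a pseudocount. Of 41345 probe sets, 23521 had 1 gene symbol, 1814 several and 16010 none; all entered the fit. Groups were compared with limma 3.58.1 (R 4.3.3, lmFit and eBayes, two-sided, Benjamini-Hochberg over all probe sets, threshold 0.05). SEs and 95% intervals are those of the fit. This fit was first tested on simulated data. In them each probe set had the same SD in both groups, and the added changes were larger than those of the 63 genes. The simulation therefore says little about differences as small as theirs. All 63 genes matched RefSeq by gene number with the same symbol. The members and lists were chosen with earlier results of these data known. Values on every array are given for the 4 genes of each subunit with the smallest p in each direction, the 2 with the largest SD and a fixed set; of other lists, up to 3 genes with the smallest p. Rpl29 and Rps7 were added because their groups did not overlap, and Rpl15, Rpl10a and Rpl38 after their values were seen, as were Rrs1 and Dkc1. Alternatives changed normalization, filters, weights, covariates, arrays and probe sets. The number of arrays limits the precision.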

Additional observations from a re-analysis of the deposited data

How the results depend on the processing

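No probe set passed the adjusted threshold in limma with all 6 arrays, where 3668 had an unadjusted p under 0.05, and the count stayed at 0 under quantile normalization, median centring, restriction to probe sets above the median mean, and an intensity trend. It was 2611 with array weights (10793 unadjusted) and 1238 with Xist as covariate (8273 unadjusted), a fit in which transgenic replicate 2 is the one transgenic array with Xist near the wild type level. Leaving out 1 array gave 0 to 335 calls, the 335 without transgenic replicate 2. Leaving out wild type replicate 1 or 2 left 2031 or 2253 unadjusted, and leaving out transgenic replicate 1 gave 5168. Across these fits, array weights alone gave calls among the 63 genes, Rpl3 (0.74, adjusted p 0.0207) and Rpl39 (-0.84, 0.0387). These were 2 of the 63, against 2611 of all 41345 probe sets in that fit.

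The median difference of the small subunit was -0.0081 with array weights and 0.28 with Xist as covariate, and that of mitochondrial ribosomal protein genes 0.12 with array weights and 0.52 with Xist as covariate. Leaving out 1 array gave 0.04 to 0.15 for the large subunit, 0.06 to 0.18 for the small subunit and 0.20 to 0.40 for the mitochondrial genes. All other alternatives put the large subunit between 0.04 and 0.16. The large subunit was not run with genes outside the symbol pattern. With the replicate block the medians stayed at 0.11 and 0.12 for the large and small subunits and 0.27 for the mitochondrial genes, and 0 probe sets were called. Same-numbered arrays deviated from their group means with correlations of 0.01, -0.10 and -0.07, so the numbers give no sign of pairing.

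Of 33 named genes, 13 changed sign under some alternative, none past the threshold there. With Xist as covariate the difference was -0.28 for Rpl3l, 0.0217 for Rpl7a, -0.16 for Rpl11, 0.0846 for Rpl23a, 0.24 for Rpl39, 0.0025 for Rps18 and 0.0639 for Rplp0. With array weights it was -0.20 for Rpl5, -0.11 for Rpl32 and 0.13 for Rplp0. Rpl22 was at 0.0283 under quantile normalization and 0.0311 under median centring, Rplp0 at 0.0070 under median centring and 0.0541 over the mean of its probe sets, and Rpl39 at 0.12 once probe sets with several symbols were read too. That reading also gave 0.088 for Rpl26, 0.16 for Rpl37a, 0.18 for Rps27 and 0.44 for Rpl5. Leaving out 1 array gave -0.11 to 0.15 for Rpl3l, -0.0127 to 0.4739 for Rpl10l, -0.0684 to 0.13 for Rpl11, -0.2187 to 0.11 for Rpl22, -0.0592 to 0.13 for Rpl32, -0.4849 to 0.0571 for Rpl39, -0.3636 to 0.0114 for Rpl39l, -0.0527 to 0.5642 for Rps15 and -0.2105 to 0.0804 for Rplp0. The cause of these changes was not tested.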
